A study of Mus musculus with 4 samples.

Results

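The *Mef2* and *Camk2* families were examined here as 7 genes, *Mef2a*, *Mef2c*, *Mef2d*, *Camk2a*, *Camk2b*, *Camk2d* and *Camk2g*, out of 23038 genes in the files. The rows of these symbols were taken from the gene tables, and 54 of 38240 alternative splicing events were taken by the numeric gene identifier in the event name. Cortical RNA was obtained at E14.5, in mid-neurogenesis, from 2 control samples (*Qk*fl/fl, titled WT and labelled wild type) and 2 *Qk* cKO samples (*Nestin*-Cre with *Qk*fl/fl), which the study describes as littermates. The floxed *Qk* alleles were carried by both groups, and Cre was driven by the *Nestin* promoter, which is active in neural progenitor cells, so cells of other origin in the cortex kept *Qk*. *Qk* codes for the RNA-binding protein Qki, and the study asked which transcripts change in level or splicing without it. The labels speak of independent replicates without naming animals, so p-values of tests that keep the samples apart measure the spread between these samples. Those of tests on tags summed over a group do not.

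MEF2 proteins are MADS-box transcription factors that bind DNA as dimers and switch genes on or, together with class II histone deacetylases, off. CaMKII is a kinase of many subunits that is turned on by calcium-bound calmodulin and can stay active by phosphorylating itself. Calcium signals reach MEF2 through calmodulin, the phosphatase calcineurin and kinases that release the deacetylases. Both families are known for short alternative exons. In MEF2 these are a small acidic exon in the transactivation domain, called β, and a pair of mutually exclusive exons next to the DNA-binding part. In CaMKII they lie in the linker between the regulatory segment and the association domain, where an exon of 33 nt carries a nuclear localization signal of basic residues.

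The small β exons of the 3 *Mef2* genes are shown first because they are the shortest exons tested here and occupy the same place in each gene. Exon bases are in capitals, and 15 bases of the flanking exons are in lower case, as spliced in GENCODE M21 transcripts (GRCm38, the same build as mm10).
Mef2a 24-nt exon, chr7:67244521-67244544, minus strand: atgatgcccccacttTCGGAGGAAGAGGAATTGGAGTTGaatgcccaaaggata
Mef2c 24-nt exon, chr13:83654598-83654621, plus strand: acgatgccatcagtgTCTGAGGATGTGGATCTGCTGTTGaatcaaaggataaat
Mef2d 21-nt exon, chr3:88161781-88161801, plus strand: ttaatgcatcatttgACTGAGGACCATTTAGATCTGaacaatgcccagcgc
The exons of *Mef2a* and *Mef2c* had the same base at 17 of 24 positions. All 3 are coding and keep the reading frame.

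The *Camk2d* and *Camk2g* exons of 33 nt are shown because they have similar sequences and very different tag numbers in this tissue, and the *Camk2d* exons of 60 and 42 nt and the *Camk2b* exons of 45 and 75 nt because they lie in the same linker.
Camk2d 33-nt exon, chr3:126802937-126802969, plus strand: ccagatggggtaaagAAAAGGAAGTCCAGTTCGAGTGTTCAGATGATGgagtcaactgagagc
Camk2g 33-nt exon, chr14:20747819-20747851, minus strand: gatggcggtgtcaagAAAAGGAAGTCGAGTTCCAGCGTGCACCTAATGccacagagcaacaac
Camk2d 60-nt exon, chr3:126805857-126805916, plus strand: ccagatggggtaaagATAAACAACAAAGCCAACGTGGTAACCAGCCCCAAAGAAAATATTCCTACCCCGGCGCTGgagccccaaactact
Camk2d 42-nt exon, chr3:126808208-126808249, plus strand: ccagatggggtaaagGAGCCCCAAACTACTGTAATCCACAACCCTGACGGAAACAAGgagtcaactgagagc
Camk2b 45-nt exon, chr11:5981070-5981114, minus strand: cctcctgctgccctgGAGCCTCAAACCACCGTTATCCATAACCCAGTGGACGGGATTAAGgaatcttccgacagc
Camk2b 75-nt exon, chr11:5987057-5987131, minus strand: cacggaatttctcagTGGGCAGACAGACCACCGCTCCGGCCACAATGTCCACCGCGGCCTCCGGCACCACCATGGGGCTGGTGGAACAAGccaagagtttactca
The *Camk2d* and *Camk2g* exons of 33 nt shared 26 of 33 bases (78.8%). A 33-nt exon of *Camk2b*, which lies elsewhere in that gene, shared 9 of 33 bases with that of *Camk2g* and is not its counterpart.

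The authors deposited, for each gene, an estimated number of tags (the unit counted by Quantas, often a whole number but not always) and the RPKM, which relates the tags to exon length and depth. Totals of 37942046 to 42994832 tags were assigned to genes per sample, and the members had between 1570 and 6380 tags each in every sample. As a check of the labels, the junction of *Qk* exons 2 and 3, where exon 2 is the floxed exon, had 635 and 565 tags in the controls and 63 and 68 in *Qk* cKO. Of 9 lists of cell type markers, 2 held called genes, all lower in *Qk* cKO, a direction called in 0.377% of all genes. These were 2 of 8 radial glia genes (*Fabp7* and *Slc1a3*), while *Pax6* was slightly higher in both *Qk* cKO samples (log2 fold change 0.077, not called), and 5 of 8 genes of hypothalamus and diencephalon, whose summed RPKM was 11.4 and 17.7 in the controls and 8.56 and 7.85 in *Qk* cKO. *Fabp7*, *Six6*, *Nkx2-2*, *Pomc* and *Nr5a1* are listed as changed by the study from this same comparison, so such counts lend no separate support. The summed RPKM of 7 neuron markers was 1234 and 1266 in the controls and 1225 and 1155 in *Qk* cKO, with no gene called. Most of that sum was *Tubb3* (765.1 and 832.6 in the controls, 779.3 and 676 in *Qk* cKO). The median log2 fold change of the 7 markers was 0.037, so the sum does not stand for the list. The 5 skeletal muscle markers summed to at most 0.879 in any sample, with *Myog* at 0 in all 4. The 7 marker calls became 0 without control replicate 2, 3 without control replicate 1, and 1 with DESeq2 or edgeR's filterByExpr. DESeq2 gave *Six6*, *Nkx2-2*, *Otp*, *Pomc* and *Nr5a1* no FDR, and they were counted as not called there. The part of the marker differences in the members' values was not tested, and in bulk tissue fewer cells of a type and less RNA per cell cannot be told apart.

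None of the 7 members was called as changed in steady-state level in *Qk* cKO. The tags per gene, rounded, entered the quasi-likelihood test of edgeR, with a call at p below 0.01 and a Benjamini-Hochberg FDR below 0.1 over 18834 genes. This rule called 110 genes (0.584%), and 0 of 7 members, and against so low a background a count of 0 says little about them. The 110 calls became 0 without control replicate 2, 11 without control replicate 1, 428 without *Qk* cKO replicate 1 and 68 without *Qk* cKO replicate 2. An unadjusted p below 0.05 was reached by 0 of 7 members and by 8.76% of all genes. The exact test of edgeR and DESeq2 also called 0 of 7. The median log2 fold change was 0.016 over the members and -0.0025 over all genes tested.

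*Mef2a* had an RPKM of 17.1 and 17.0 in the controls and of 15.8 and 17.9 in *Qk* cKO. The *Qk* cKO samples lay on either side of both controls, and the log2 fold change was -0.0048 (standard error 0.0964, 95% interval -0.21 to 0.20, edgeR FDR 0.996). *Mef2c*, which marks and shapes cortical projection neurons, was at 10.5 and 9.11 in the controls and 9.78 and 11.3 in *Qk* cKO. It had the widest relative spread of the 3 *Mef2* genes, and its log2 fold change was 0.12 (standard error 0.0817, 95% interval -0.05 to 0.29, edgeR FDR 0.766). It was 0.23 without control replicate 1 and 0.21 without *Qk* cKO replicate 1, but 0.014 without control replicate 2 and 0.018 without *Qk* cKO replicate 2, and was not called in any of these. *Mef2d* was at 15.6 and 15.8 in the controls and 15.5 and 15.04 in *Qk* cKO. Both *Qk* cKO values were below both controls, but the log2 fold change was only -0.023 (standard error 0.0892, 95% interval -0.21 to 0.16, edgeR FDR 0.964). Of the remaining family member, *Mef2b*, little was found, with an RPKM between 0.09 and 0.37.

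*Camk2a*, which codes for the α subunit that dominates in the mature forebrain, had an RPKM of 8.66 and 9.44 in the controls and of 8.39 and 8.05 in *Qk* cKO. The groups did not overlap, and the log2 fold change of -0.12 was the largest in size among the members (standard error 0.0775, 95% interval -0.29 to 0.04, edgeR FDR 0.718). *Camk2b*, the actin-binding β subunit, was at 18.04 and 18.6 in the controls and 17.9 and 19.2 in *Qk* cKO, and the log2 fold change of 0.033 was within its error (standard error 0.0536, 95% interval -0.08 to 0.14, edgeR FDR 0.903). *Camk2d*, the δ subunit, was at 4.27 and 4.53 in the controls and 4.43 and 4.83 in *Qk* cKO, and the log2 fold change was 0.0855 (standard error 0.10, 95% interval -0.12 to 0.29, edgeR FDR 0.877). *Camk2g*, the γ subunit, was at 33.9 and 33.6 in the controls and 33.9 and 33.6 in *Qk* cKO, and its log2 fold change was 0.016 (standard error 0.0532, 95% interval -0.10 to 0.13, edgeR FDR 0.957). The groups did not overlap in 2 of 7 members, *Mef2d* and *Camk2a*, against 36.9% of all genes tested. Every 95% interval lay within 0.30 of 0 on the log2 scale. The width differed between members, from -0.10 to 0.13 for *Camk2g* to -0.12 to 0.29 for *Camk2d*. A change inside a member's own interval was not told apart from no change.

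**Figure D1:**
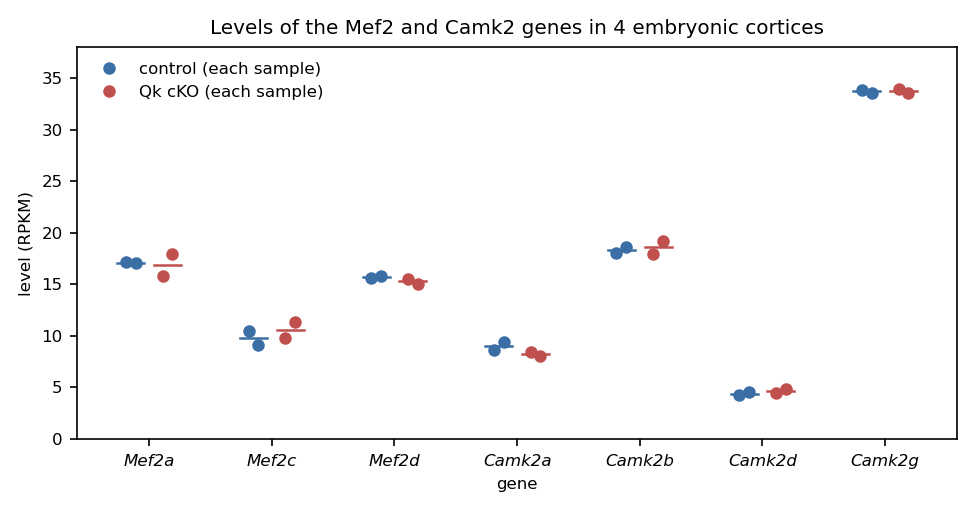
RPKM (vertical axis, linear from 0) of the 7 genes in each control sample (blue) and each *Qk* cKO sample (red), with a line at the mean of each group. The values of a gene lie close together in all 4 samples, from *Camk2g* near 33.7 RPKM to *Camk2d* near 4.51 RPKM, and the groups are hardly apart for any gene.

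The order of the mean levels per length was the same in both groups. *Camk2g* had the highest level (mean RPKM 33.7 over the 4 samples), and its range did not overlap that of the next gene. *Camk2b* (18.5, range 17.9 to 19.2) and *Mef2a* (17.0, range 15.8 to 17.9) overlapped in range. *Mef2d* followed at 15.5, below every value of *Mef2a*. *Mef2c* (10.2, range 9.11 to 11.3) and *Camk2a* (8.64, range 8.05 to 9.44) again overlapped, and *Camk2d* was lowest at 4.51. Among the 12743 genes with a mean RPKM of at least 1, *Camk2g* stood at the percentile 81.7 and *Camk2d* at 26.3.

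Within the *Camk2* family, the γ subunit had the largest share per length. Counted as tags without regard to length, *Camk2b* came first in this family with 39.4%, against 32.9% for *Camk2g*, and *Mef2c* came first in its own with 43.2%. *Camk2g* took 52.2% and 50.7% of the summed family RPKM in the controls and 52.5% and 51.1% in *Qk* cKO. *Camk2b* took 28.0% ± 0.21 in the controls and 28.5% ± 1.1 in *Qk* cKO, *Camk2a* 13.8% ± 0.65 and 12.6% ± 0.51, and *Camk2d* 6.72% ± 0.19 and 7.10% ± 0.35 (SD, n = 2 each). In the *Mef2* family, *Mef2a* took 40.1% ± 0.72 in the controls and 39.5% ± 1.4 in *Qk* cKO, *Mef2d* 36.9% ± 1.1 and 35.9% ± 2.7, and *Mef2c* 23.0% ± 1.8 and 24.7% ± 1.3 (SD, n = 2 each). These shares overlapped between the groups for every gene but *Camk2a* (13.4% and 14.3% in the controls, 13% and 12.3% in *Qk* cKO).

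The genes whose centred log2 CPM followed a member most closely over the 4 samples were listed as a description, the 2 nearest for each. They were *Tomt* and *Socs2* for *Mef2a*, *Dcaf6* and *Fam82b* for *Mef2c*, *Gng7* and *Stk25* for *Mef2d*, and *Rhobtb2* and *C030046I01Rik* for *Camk2a*. For *Camk2b* they were *Ttc13* and *Etnk1*, for *Camk2d* *Mmgt1* and *Itga9*, and for *Camk2g* *Myh10* and *H2afy*. The root mean square difference lay between 0.0019 (*Rhobtb2* with *Camk2a*) and 0.00918 (*Fam82b* with *Mef2c*) on the log2 scale. With 4 samples and 12743 genes to choose from, such closeness is easily reached.

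The genes around both families were likewise not called. Of 61 tested genes in 6 lists of the calcium and MEF2 pathways, 0 were called by edgeR, against 0.584% of all genes, 0 also by its exact test and by DESeq2, and 6 had an unadjusted p below 0.05 (8.76% of all genes), 2 with a higher and 4 with a lower mean in *Qk* cKO. The groups did not overlap in 29 of the 61, against 36.9% of all genes. The median log2 fold change of the 61 genes was -0.020.

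Of the 8 other calmodulin kinases, the most abundant were *Pnck*, with an RPKM of 28.5 and 36.4 in the controls and 34.2 and 29.7 in *Qk* cKO, and *Camk1*, with 27.8 and 36.3 in the controls and 31.9 and 29.5 in *Qk* cKO. Both varied more between the controls than between the groups. *Camk4*, a nuclear kinase that acts upstream of CREB, had the smallest p of the list (log2 fold change 0.15, standard error 0.110, edgeR FDR 0.778). Of the 7 calmodulin genes and calmodulin-binding proteins, *Calm2* (RPKM 717 and 678.4 in the controls, 767.3 and 720.2 in *Qk* cKO) and *Calm3* (299.8 and 306 in the controls, 279.1 and 268.5 in *Qk* cKO) were the most abundant, and *Marcks*, a calmodulin-binding membrane protein, had the smallest p (log2 fold change -0.11, standard error 0.0588, edgeR FDR 0.622).

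Of the CaMKII inhibitors and binding partners, 8 were in the files under the spelling used. *Camk2n2*, which codes for a small inhibitor protein of CaMKII, had the smallest p of any gene in the 6 lists. Its RPKM was 12.3 and 13.2 in the controls and 9.38 and 10.4 in *Qk* cKO, without overlap, and its log2 fold change was -0.35 (standard error 0.118, unadjusted p = 0.00713 and FDR 0.302 in edgeR's quasi-likelihood test), which was not called. *Dlg4*, the postsynaptic scaffold PSD-95, was the most abundant of this list and *Camk2n2* the next. *Dlg4* was at 88.8 and 92.0 in the controls and 83.9 and 89.6 in *Qk* cKO. Of the 10 phosphatase genes, *Ppp1ca* (207.1 and 197.4 in the controls, 210.6 and 193.2 in *Qk* cKO) and *Ppp3ca*, a catalytic subunit of calcineurin (81.1 and 80.9 in the controls, 82.2 and 82.1 in *Qk* cKO), were the most abundant. *Ppp3r1*, the regulatory subunit of calcineurin, had the smallest p (log2 fold change 0.14, standard error 0.0609, edgeR FDR 0.494).

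Of the 17 MEF2 regulators and cofactors, *Cdk5* (31.3 and 31.4 in the controls, 30.7 and 30.1 in *Qk* cKO) and *Hdac5*, a class II deacetylase that holds MEF2 targets silent (32.1 and 31.8 in the controls, 29.5 and 29.1 in *Qk* cKO), were the most abundant. *Mapk7*, which codes for ERK5, a kinase that activates MEF2, had the smallest p, with an RPKM of 17.6 and 17.1 in the controls and 15.6 and 15.3 in *Qk* cKO, which gave a log2 fold change of -0.15 (standard error 0.0719, edgeR FDR 0.551). Of the 11 activity-regulated and MEF2 target genes, *Rgs2* (17.9 and 19.7 in the controls, 19.2 and 17.5 in *Qk* cKO) and *Klf6* (7.67 and 8.19 in the controls, 7.55 and 8.55 in *Qk* cKO) were the most abundant, and *Pcdh10* had the smallest p (log2 fold change -0.13, standard error 0.0710, edgeR FDR 0.646).

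**Figure D2:**
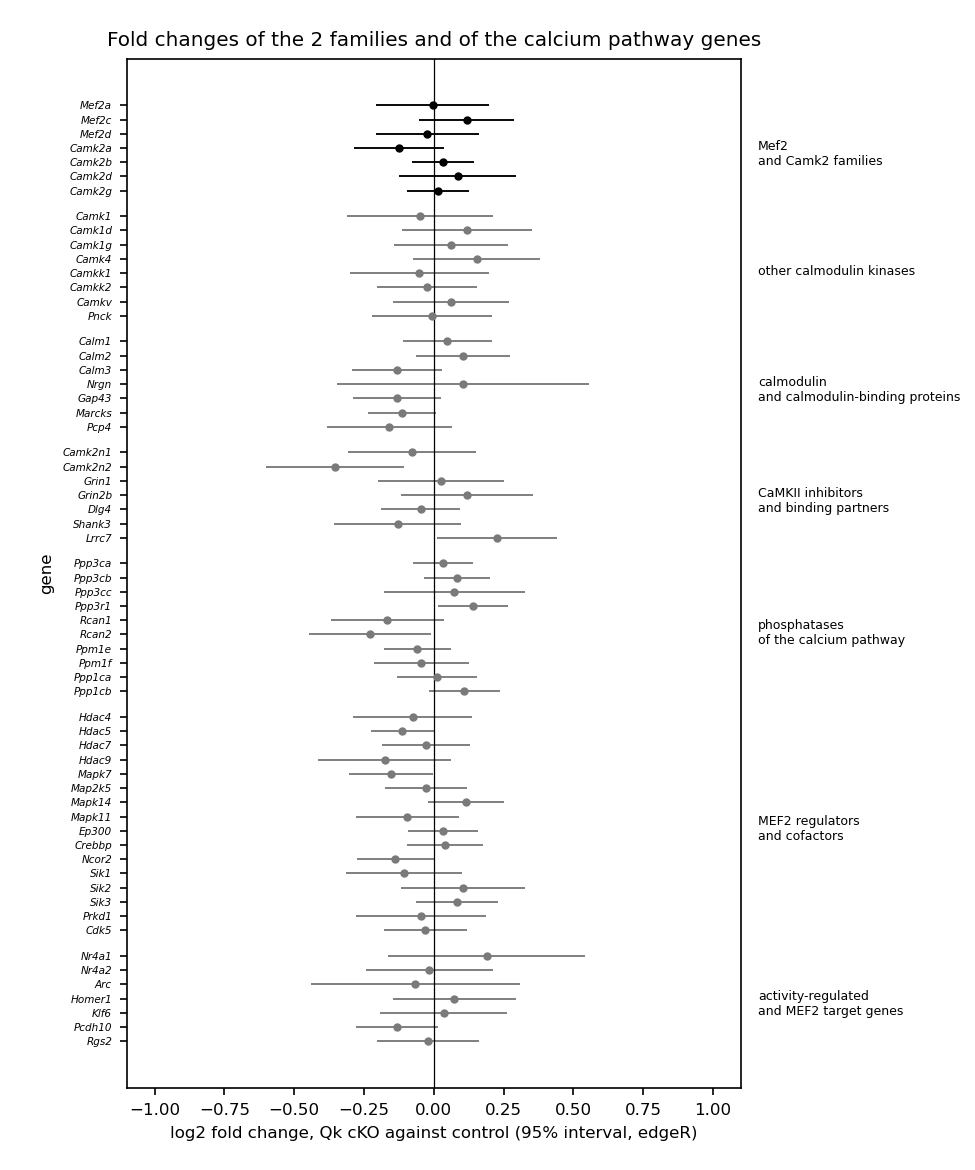
Log2 fold change of *Qk* cKO against control (horizontal axis) with the 95% interval of edgeR's quasi-likelihood fit, for the 7 members (black) and for the genes of the 6 pathway lists with a mean RPKM of at least 1 (grey). All points are close to 0, and *Camk2n2*, at -0.35, is farthest from it.

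Splicing of the members was likewise not called as changed. The files held 29 events with a cassette exon, 2 with tandem cassette exons, 7 with a mutually exclusive pair, 11 with a choice of 3′ splice site and 5 with a choice of 5′ splice site in these genes, and 0 with a retained intron. Of the 54 events, 30 reached the coverage of 20 junction tags needed for the test, that is, at least 20 tags in each group and on each isoform, the lowest of these 4 sums being the coverage. The other 24 events had a coverage of at most 18 and were not tested. The 30 tested events comprised 18 of *Camk2* genes and 12 of *Mef2* genes, and 5 of the tested *Mef2c* events had identical tags, which left 26 distinct events. The isoform tags were summed over the 2 samples of a group, and Fisher's exact test called 0 of 30 at p below 0.01 and FDR below 0.1 within the event type, against 862 of 11500 events (7.50%) in all genes. Summed tags leave out the spread between samples. Any called event was found in 520 of 4751 genes with a tested event (10.9%), and in 0 of the 7 members. By edgeR's interaction test, in which the spread between the samples enters, 0 of 30 were called (lowest FDR 0.590), against 0.557% of all events. An unadjusted p below 0.05 in that test was reached by 0 of 30, against 7.17% of all events.

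The inclusion of an exon is given from the junction tags, as the mean tags of the inclusion junctions divided by that mean plus the tags of the skipping junction, and Δ*I* is the control value minus the *Qk* cKO value. The median size of Δ*I* was 0.0304 over the 26 distinct events and 0.0256 over all tested events. Δ*I* reached 0.1 in size in 1 of the 26, against 11.4% of all tested events. Inclusion did not overlap between the groups in 7 of the 26, against 37.9% of all. In summed tags it was higher in *Qk* cKO in 14 of the 26 and lower in 12. An unadjusted p below 0.05 in Fisher's exact test was reached by 3 of the 26, against 16.8% of all events tested.

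**Figure D3:**
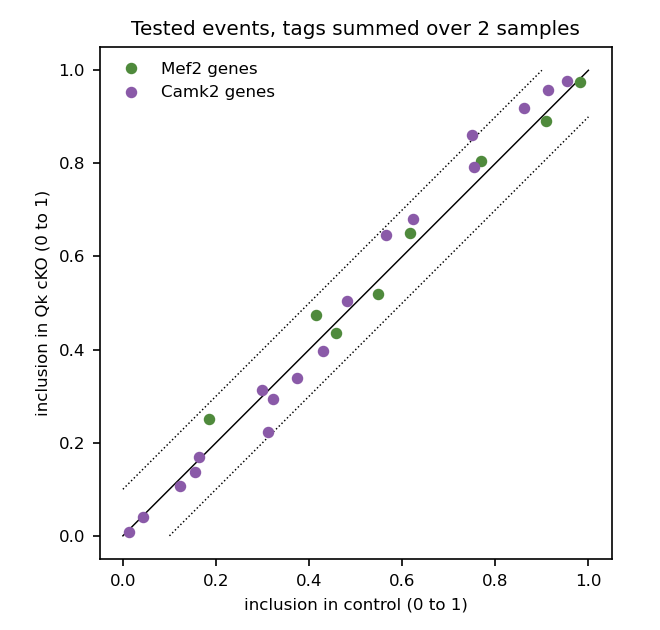
Inclusion in the controls (horizontal axis, 0 to 1) against inclusion in *Qk* cKO (vertical axis, 0 to 1) for the 26 distinct tested events, tags summed over the 2 samples of each group. The solid line marks equal inclusion, the dotted lines a difference of 0.1 either way, and 1 event, the 75-nt exon of *Camk2b*, lies past a dotted line.

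The 3 events with p below 0.05 were all in *Camk2* genes and all had higher inclusion in *Qk* cKO. The 45-nt exon of *Camk2b*, exon 16 of the transcript Camk2b-202, codes for part of the variable linker and had the smallest p of all member events. Its inclusion was 0.566 and 0.564 in the controls and 0.588 and 0.702 in *Qk* cKO, with 95% Wilson intervals of 0.508 to 0.621, 0.501 to 0.624, 0.533 to 0.642 and 0.649 to 0.750 in the same order. These rest on 328 and 279 inclusion tags with 126 and 108 skipping tags in the controls, and on 363 and 443 inclusion tags with 127 and 94 skipping tags in *Qk* cKO. Both *Qk* cKO samples lay above both controls, but replicate 1 by little and replicate 2 by much more. The difference was Δ*I* -0.0812 (95% Newcombe interval -0.137 to -0.0248, coverage 455), with p = 0.0149 and FDR 0.135 in Fisher's exact test. The FDR of edgeR's interaction test was 0.699. With junction tags only the exon was called (p = 0.00555, FDR 0.0956 in Fisher's exact test, a rule that called 4.37% of all events). Without *Qk* cKO replicate 1 it was called too, with Δ*I* -0.137 (FDR 0.00778 in Fisher's exact test), while without replicate 2 Δ*I* was -0.0237, so the size rests on *Qk* cKO replicate 2.

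The 75-nt exon of *Camk2b*, exon 13 of Camk2b-202, had the largest Δ*I* of all member events. Inclusion was 0.833 and 0.652 in the controls and 0.879 and 0.848 in *Qk* cKO, and only control replicate 2 stood apart (95% Wilson interval 0.501 to 0.778). This event counts skipping to 1 3′ splice site only, which had few tags, 8.33 and 14.7 in the controls and 5.93 and 9.83 in *Qk* cKO. From the same upstream exon, a 3′ splice site 3 nt away had 69.7 and 73.3 tags in the controls and 86.1 and 94.2 in *Qk* cKO. Those tags also leave the exon out, so its share with both sites counted was lower than the inclusion given here, and was not tested. Δ*I* was -0.111 (95% Newcombe interval -0.222 to -0.0034, coverage 38.7), with p = 0.036 and FDR 0.230 in Fisher's exact test and FDR 0.655 in edgeR's interaction test. Without control replicate 1 the exon was called with Δ*I* -0.209 (FDR 0.0638 in Fisher's exact test), and without control replicate 2 Δ*I* was -0.0286. The choice between these 3′ splice sites, an event of its own, shared the skipping tags of the exon. The site 3 nt away took 0.893 and 0.833 in the controls and 0.936 and 0.905 in *Qk* cKO, so the 2 events are not separate observations.

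The third of these events, named after its values were seen, was the 95-nt exon 9 of *Camk2g* (Camk2g-201), at chr14:20764861-20764955 on the minus strand, whose loss shifts the reading frame. It was included at 0.923 and 0.902 in the controls and 0.950 and 0.963 in *Qk* cKO, so nearly all transcripts contained it. The skipping junction had 12 and 12 tags in the controls and 8 and 6 tags in *Qk* cKO. Δ*I* was -0.0426 (95% Newcombe interval -0.0851 to -0.0032), with p = 0.0462 and FDR 0.264 in Fisher's exact test.

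The 33-nt exon with the nuclear localization signal was spliced in in part of the *Camk2a* and *Camk2g* tags, whereas no junction tag of this exon was found in *Camk2d*. In *Camk2a*, on chromosome 18, its inclusion was 0.244 and 0.391 in the controls and 0.217 and 0.389 in *Qk* cKO. The values paired by replicate number and not by genotype, the samples numbered 1 being low and the samples numbered 2 high in both groups. Δ*I* was 0.0277 (95% Newcombe interval -0.0607 to 0.115), with p = 0.767 in Fisher's exact test. *Xist*, the RNA of the inactive X chromosome, had an RPKM of 57.1 and 64.5 in the samples numbered 1 and at most 0.026 in those numbered 2. A part of this in the splicing values was not tested. In *Camk2g*, the exon was included at 0.239 and 0.370 in the controls and 0.315 and 0.311 in *Qk* cKO when read against the exon after the 69-nt exon (Δ*I* -0.0144, 95% Newcombe interval -0.0859 to 0.0578, coverage 385), where the 2 *Qk* cKO values lay between the controls. Against the 69-nt exon itself its inclusion was 0.562 and 0.684 in the controls and 0.735 and 0.625 in *Qk* cKO (Δ*I* -0.0568, 95% Newcombe interval -0.202 to 0.0907). This was the largest Δ*I* among the tested *Camk2g* events.

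The 69-nt exon of *Camk2g*, at chr14:20745792-20745860, forms a pair with the 33-nt exon in which either may be used. The 33-nt exon took 0.722 and 0.781 of this pair in the controls and 0.844 and 0.736 in *Qk* cKO, on 78 and 101 tags in the controls and 114 and 92 tags in *Qk* cKO. The groups overlapped, with Δ*I* -0.0379 (95% Newcombe interval -0.142 to 0.0658).

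In *Camk2d*, 0 tags fell on the junctions of the 33-nt exon in each of the 4 samples, although 26 to 36 tags per sample joined the flanking exons directly. The tags assigned to the isoform with this exon, which need not span a junction, numbered 0 and 1 in the controls and 9 and 2 in the *Qk* cKO samples, so tags on the exon were present. For inclusion as read from junctions, a count of 0 against 121 skipping tags over all 4 samples allows up to 1.22%, with the limit set at 3 tags on the 2 inclusion junctions together and for counting error only. Other exons of the *Camk2d* linker had more tags. The 42-nt exon was included at 0.450 and 0.513 in the controls and 0.514 and 0.497 in *Qk* cKO (Δ*I* -0.0215, 95% Newcombe interval -0.146 to 0.104). The 60-nt exon upstream of it was included at 0.296 and 0.324 in the controls and 0.179 and 0.257 in *Qk* cKO. This event counts skipping only where the upstream exon joins the 42-nt exon. The 30 and 29 tags in the controls and 26 and 36 in *Qk* cKO that skip both exons also leave it out. Its share with those tags counted was lower than the inclusion given here, and was not tested. As this event counts it, both *Qk* cKO samples were below both controls, an order that need not hold with all skipping tags counted. With 14 to 27 inclusion tags per sample the Δ*I* of 0.0874 had a 95% Newcombe interval from -0.0524 to 0.232, and p was 0.134 in Fisher's exact test.

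The β exons of the *Mef2* genes, shown above, were included at very different levels, and none was called in either test. In *Mef2c*, inclusion was 0.913 and 0.902 in the controls and 0.917 and 0.863 in *Qk* cKO. In *Mef2d*, it was 0.710 and 0.820 in the controls and 0.834 and 0.776 in *Qk* cKO. In *Mef2a*, it was 0.538 and 0.564 in the controls and 0.522 and 0.518 in *Qk* cKO, the only β exon in which the groups did not overlap. The ranges of the 3 genes over the 4 samples did not overlap each other. Δ*I* was 0.0174 in *Mef2c* (95% Newcombe interval -0.0449 to 0.0772), -0.0358 in *Mef2d* (-0.126 to 0.0547) and 0.0292 in *Mef2a* (-0.0529 to 0.111). The lowest p of the 3 in Fisher's exact test was 0.420, in *Mef2d*.

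**Figure D4:**
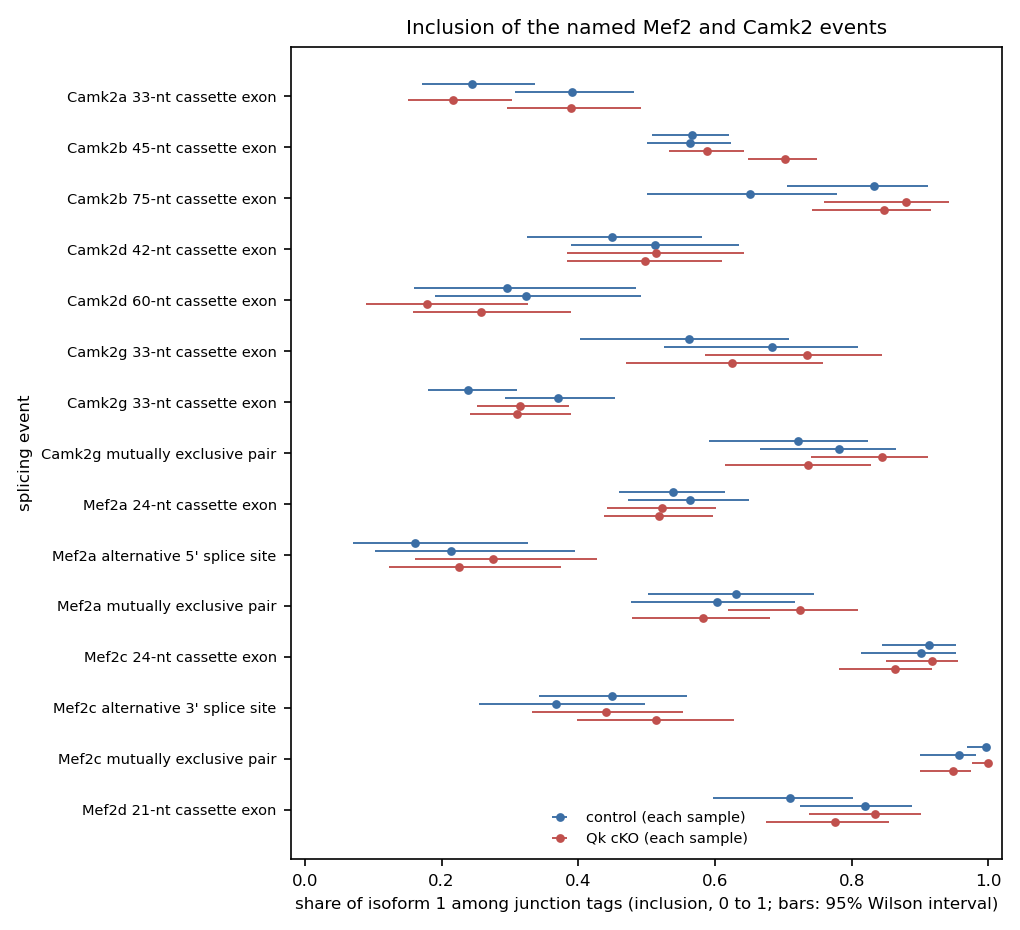
Inclusion (horizontal axis, 0 to 1) of the 15 named events in each control sample (blue) and each *Qk* cKO sample (red), with bars for the 95% Wilson interval, which covers counting error only. For the mutually exclusive pairs, inclusion is the share of the exon nearer the 5′ end, and the 2 rows of the *Camk2g* 33-nt exon differ in the downstream exon used. The intervals of the groups overlap in nearly every row, while inclusion differs widely between genes.

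The mutually exclusive exons that follow the DNA-binding part are known as α exons, 1 of which is found widely and the other mainly in muscle. In *Mef2c* these are the exons at chr13:83625265-83625408 (144 nt) and chr13:83625470-83625607 (138 nt). They are shown because the upstream exon accounted for nearly all *Mef2c* tags here.
Mef2c upstream exon: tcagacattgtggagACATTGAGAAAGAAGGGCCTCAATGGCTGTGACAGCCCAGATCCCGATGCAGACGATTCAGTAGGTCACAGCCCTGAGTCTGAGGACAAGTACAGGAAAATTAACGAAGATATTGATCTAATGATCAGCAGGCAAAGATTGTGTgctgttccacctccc
Mef2c downstream exon: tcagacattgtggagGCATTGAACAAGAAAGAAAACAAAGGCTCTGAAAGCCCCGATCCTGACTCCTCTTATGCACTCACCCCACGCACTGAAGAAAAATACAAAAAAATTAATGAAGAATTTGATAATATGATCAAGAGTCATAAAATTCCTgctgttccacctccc
The upstream exon of *Mef2c* had 304 and 201 tags in the controls and 318 and 276 tags in *Qk* cKO. The downstream exon had 1 and 9 tags in the controls and 0.00588 and 15 tags in *Qk* cKO. Its tags were thus found almost only in the samples numbered 2, in either group, while the skeletal muscle markers were at or near 0 in all. The share of the upstream exon was 0.997 and 0.957 in the controls and 1 and 0.948 in *Qk* cKO (Δ*I* 0.0053, 95% Newcombe interval -0.0228 to 0.0319).

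In *Mef2a*, by contrast, both exons of the pair were in use. The upstream exon (chr7:67268269-67268400, 132 nt, minus strand) took 0.631 and 0.603 in the controls and 0.725 and 0.583 in *Qk* cKO, and the downstream exon (chr7:67268067-67268204, 138 nt) the rest. The groups overlapped, with Δ*I* -0.0334 (95% Newcombe interval -0.146 to 0.0778). The downstream exons of *Mef2a* and *Mef2c* share 107 of 138 bases (77.5%). In *Mef2d*, the pair (chr3:88158034-88158171 and chr3:88158221-88158355) did not reach the coverage for a test. Its downstream exon had 6 and 7 junction tags in the controls and 3 and 0 in *Qk* cKO, against 118 to 158 for the upstream exon.

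Near the end of *Mef2c*, a choice of 3′ splice site adds or leaves out 96 nt (chr13:83662307-83662402), the part of the transactivation domain known as γ, which represses. The longer form took 0.373 and 0.546 in the controls and 0.481 and 0.402 in *Qk* cKO, with more spread within the groups than between them (Δ*I* 0.0236, 95% Newcombe interval -0.0672 to 0.114). The largest Δ*I* of the tested *Mef2c* events was -0.0606, at a choice between 3′ splice sites near the 5′ end of the gene that appears in 5 events with identical tags. It took 0.449 and 0.368 in the controls and 0.440 and 0.514 in *Qk* cKO (95% Newcombe interval of the difference -0.174 to 0.0555). The largest in *Mef2a* was -0.0636, at a 5′ splice site near its 5′ end with 5 to 11 tags per sample on the rarer form (inclusion 0.161 and 0.214 in the controls, 0.275 and 0.225 in *Qk* cKO). Its 95% Newcombe interval reached from -0.195 to 0.0796.

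The tested cassette exons of the members were short and mostly kept the reading frame. Of 14 distinct exons, 11 had a length that is a multiple of 3 (78.6%, against 53.0% of 4372 tested cassette exons), and 7 were 50 nt or shorter (50%, against 17.3%). The median length was 50 nt, against 94 nt.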

How the data were processed

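PolyA-selected cortical RNA of 4 samples was sequenced by the authors and aligned with OLego to mm10, the build per the labels. The authors deposited estimated counts of tags per gene from Quantas, the RPKM made from them, and estimated counts of tags per isoform and junction of each event. Aligner and Quantas versions and the strand setting are not given in the sources used here, so genes or isoforms that share sequence depend on that step. The study's text gives 2 and, in its methods, 3 replicates. The 4 labelled samples were used.

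Tags per gene were rounded and tested with edgeR 4.0.16 (R 4.3.3, TMM, genes with 1 tag or more). The common biological coefficient of variation was 0.0953. Event tags were summed, rounded and tested with Fisher's exact test (scipy 1.17.1), two-sided, with Benjamini-Hochberg adjustment within each event type. Tags of 1 fragment are not independent, so the intervals cover counting error only. Exons were placed on GENCODE M21. As alternatives, DESeq2 1.42.0, the exact test of edgeR, other scaling, filters and coverages, the replicate number as a block, and leaving out samples were tried. The members, lists and tests were chosen with earlier results of these data known. Named were all members, called events, the largest Δ*I* of each member, tested cassette exons up to 50 nt and mutually exclusive pairs. Of each pathway list the 2 most abundant genes and the 1 with the smallest p were named, and all called genes. Of the list symbols, 3 were not found as spelled. On simulated data with 200 changed genes among 18607 (log2 fold change 1), edgeR's quasi-likelihood test recovered 195. For splicing, 200 of 11500 simulated events were given a shift of inclusion of 0.2. The changed events were drawn only from those with many tags and intermediate inclusion. Simulated tags varied by counting error only, without spread between samples, so recovery in other settings was not tested. Of the 200 changed events, 193 were found by Fisher's exact test and 192 by edgeR's interaction test, while 18 and 20 unchanged events were called in error. Both simulated sizes exceed those of the members, whose largest were -0.12 on the log2 scale and a Δ*I* of -0.111. Recovery of changes this small was not tested. Nor was recovery split by coverage, which had a median of 82.5 and a minimum of 22 in the distinct tested member events.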

Additional observations from a re-analysis of the deposited data

How the results depend on the processing

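No member and no pathway gene was called under any alternative tool, scaling, filter or block, or with any sample left out. The log2 fold change turned direction without 1 sample for *Mef2a* (-0.0871 to 0.0694), *Mef2d* (-0.0604 to 0.0097), *Camk2b* (-0.0097 to 0.0696) and *Camk2g* (-0.0052 to 0.0324), with no FDR below 0.1. Counted as shares of tags, which favour long genes, the *Mef2* family was 27.3% *Mef2a*, 43.2% *Mef2c* and 29.4% *Mef2d*, and the *Camk2* family 16.7% *Camk2a*, 39.4% *Camk2b*, 10.9% *Camk2d* and 32.9% *Camk2g*, so the order within each family holds per length only. The number of called member events was 0 with coverage of at least 10 or 50, with adjustment over all types and in the interaction test, was 1 with junction tags only, and lay between 0 and 1 with each sample left out. In the Cochran-Mantel-Haenszel test, blocked on the replicate number (the replicate block), it was 0, and the *Qk* exon 2-3 junction, at 6.40% of control relative to the exon 3-4 junction, was at 6.36%. The numbers share no stated origin, and between samples of equal number the deviations from the group mean correlated at 0.303 over 12928 genes and at -0.0807 over 12442 autosomal genes. As a block they called 192 genes instead of 110, filterByExpr called 11 of 15447, and leaving out each sample gave 0 to 428. The called marker genes, 7 in all, were 1 with DESeq2, 1 with filterByExpr, and 0 to 9 with each sample left out.

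With each sample left out in turn, Δ*I* turned direction in the *Camk2d* 42-nt exon (-0.0545 to 0.0086), the *Camk2a* 33-nt exon (-0.0669 to 0.105), the *Camk2g* 33-nt exon (-0.0738 to 0.0569 and, against the 69-nt exon, -0.119 to 0.0029), the *Mef2c* 24-nt exon (-0.0086 to 0.0458), the *Mef2d* 21-nt exon (-0.0947 to 0.0153) and the pairs of *Camk2g* (-0.0900 to 0.0184) and *Mef2a* (-0.108 to 0.0341). The *Mef2c* pair kept the coverage for a test only without control replicate 1 (-0.0182) or without *Qk* cKO replicate 1 (0.0322). The planned search for the Qki motif ACTAAC in the introns was not run, since a genome sequence was not used here. Depth limits the splicing results, since at the coverage of 31 of the *Mef2a* 5′ splice site the interval of Δ*I* reached -0.195.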
